A study of Mus musculus with 8 samples.

Results

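Expression of 9 transcription factors that give the intestinal epithelium its identity was examined in 8 libraries from 2 experiments: the caudal homeobox factors Cdx1 and Cdx2, the nuclear receptors Hnf4a and Hnf4g, the zinc finger factors Gata4 and Gata6, the Krüppel-like factors Klf4 and Klf5, and the HMG-box factor Sox9. They were chosen by name, through their mouse symbols in a table of 21757 genes and their human symbols in tables of 60237 genes. All 9 were found in both. The first experiment compared wild-type (WT) small intestinal organoids of the mouse with Ctnnb1-ex3 organoids, in 2 libraries per group. The name Ctnnb1-ex3 is commonly used for a beta-catenin allele without exon 3, whose protein escapes degradation. By the culture notes, both received Noggin and EGF, and the WT organoids received Wnt3a and R-spondin1 as well, so genotype and medium differed together. The second experiment set a hairpin against Prmt1, an arginine methyltransferase (sh-Prmt1), beside a scrambled control hairpin (sh-scramble), again in 2 libraries per group. Its labels name mouse intestinal organoids, but every gene identifier in its tables is human, so symbols are given in capitals and the culture behind these libraries is not established here. Whether replicates came from separate cultures or animals is not stated, nor is the Cre driver, the number of lines or the hairpin sequence, and each p-value rests on differences among these libraries only, and these may be technical.

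As background, CDX2 specifies intestinal rather than gastric epithelium and, together with CDX1 and the HNF4 pair, opens and drives genes of the absorptive enterocyte. HNF4A and HNF4G are expressed along the villus and overlap in function. GATA4 is known from the duodenum and jejunum, where it keeps ileal genes low, while GATA6 extends along the whole intestine. KLF5 is a factor of dividing crypt cells, KLF4 of cells that have left the cell cycle, and SOX9 of the Wnt-driven crypt base.

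In Ctnnb1-ex3 organoids the 9 factors did not move as a block. Hnf4g fell 4.96-fold, with smaller falls of Gata4, Hnf4a and Klf5, while Sox9 rose 2.35-fold. The calls of Hnf4a and Klf5, unlike those of Hnf4g, Gata4 and Sox9, were lost in some alternative settings. The libraries of Cdx2 overlapped between groups, and Cdx1, Gata6 and Klf4 did not pass the test. In the sh-Prmt1 libraries CDX1 rose 1.36-fold and KLF5 1.28-fold in CPM, and the call of KLF5 was likewise lost in some settings. The other 6 tested factors were not called there, and GATA4 had almost no counts.

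The genotype libraries held between 2951887 and 6015933 counts and the knockdown libraries between 39608007 and 53193113 estimated counts. Unless stated otherwise, a level is given as CPM, the count divided by the TMM-scaled library size. A floor of 3 counts stood at 0.451 to 1.14 CPM in the genotype libraries and 0.0528 to 0.0809 in the knockdown libraries. Prmt1 went from 37.0 and 34.2 CPM in sh-scramble to 2.99 and 3.35 in sh-Prmt1, as its labels say. Ctnnb1, listed as a check, had 340 and 423 CPM in the WT libraries against 217 and 289 in Ctnnb1-ex3. A gene-level count cannot show the loss of an exon. Both check genes also differed in the other experiment. CTNNB1 had 466 and 601 CPM in sh-scramble against 374 and 273 in sh-Prmt1 (log2 fold change -0.72, edgeR adjusted p = 0.00549). Prmt1 had 10.1 and 11.4 CPM in WT against 51.2 and 32.4 in Ctnnb1-ex3 (1.97, edgeR adjusted p = 0.00287). All 8 intestinal epithelial markers searched for (such as Vil1, Cdh17 and Lgals4) were expressed in both experiments. In the genotype libraries, squamous markers summed to 3.91 and 4.18 CPM in WT, against 20.4 and 35.7 in Ctnnb1-ex3, where Krt4 had 117 and 131 counts (4 and 1 in WT) and Trp63 at most 2. Sox2 of the stomach had at most 2 counts, while stomach markers summed to 28.1 to 102 CPM in WT and 99.2 to 110 in Ctnnb1-ex3, of which Gkn3 made up 20.2 to 72.7. Markers of immune and blood cells summed to 93.7 and 12.6 CPM in WT, against 13.4 and 75.0 in Ctnnb1-ex3, with Lyz2 at 323 counts in WT replicate 1 (3 to 74 elsewhere) and Gzma at 110 in Ctnnb1-ex3 replicate 2 (1 elsewhere). Their part in the results below was not tested. In these bulk libraries, fewer cells of a type and less RNA per cell cannot be told apart.

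On the GRCm38 build (mm10), Cdx1 lies on chromosome 18 from 61018862 to 61036199 (minus strand), Cdx2 on chromosome 5 from 147300805 to 147307270 (minus) and Hnf4a on chromosome 2 from 163506808 to 163572910 (plus). Hnf4g lies on chromosome 3 from 3508030 to 3658052 (plus), Gata4 on chromosome 14 from 63198922 to 63271692 (minus) and Gata6 on chromosome 18 from 11052064 to 11085635 (plus). Klf4 lies on chromosome 4 from 55527143 to 55532466 (minus), Klf5 on chromosome 14 from 99298691 to 99315036 (plus) and Sox9 on chromosome 11 from 112782224 to 112787760 (plus). Gata6 shares 93 exonic bases with 1010001N08Rik, a transcript on the opposite strand, which a method without strand information cannot separate. No other member overlaps an exon of another gene in the GENCODE M21 annotation.

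Compared per length, the WT order was led by Hnf4g at 227 ± 22.6 CPM per kb of exon (mean ± SD, n = 2 here and throughout). Cdx1 followed at 94.2 ± 13.7, Hnf4a at 71.3 ± 9.20 and Klf5 at 42.0 ± 3.33. Gata4 (37.0 ± 0.797) and Cdx2 (36.9 ± 3.14) could not be ranked against each other, since their libraries overlapped. Sox9 stood at 28.7 ± 0.843, and Gata6 (24.3 ± 2.45) and Klf4 (22.4 ± 3.06) overlapped at the bottom. In Ctnnb1-ex3 organoids the order was different at the top: Cdx1 (73.2 ± 5.82) and Sox9 (67.5 ± 2.68) came first, with overlapping libraries. Hnf4a (45.7 ± 5.62) and Hnf4g (45.7 ± 5.77) were then level with each other. Cdx2 followed at 38.1 ± 3.14, Klf5 (29.3 ± 3.01) overlapped with Klf4 (29.0 ± 2.15), and Gata4 (20.5 ± 2.35) overlapped with Gata6 (19.1 ± 0.214). All of them were well expressed: among the genes tested, the lowest rank per length of any member in any library was the 67.4th percentile (Klf4), and Hnf4g in WT reached the 99.2th.

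**Figure D1:**
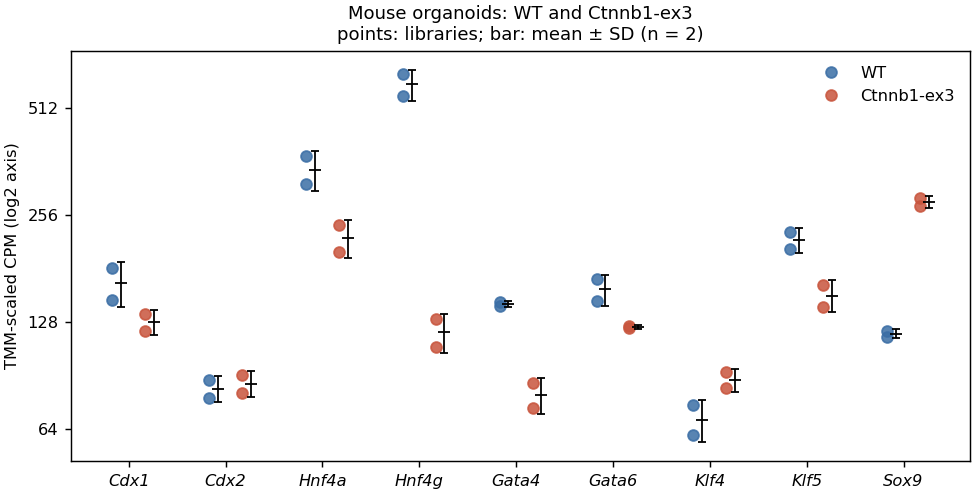
TMM-scaled CPM (log2 axis) of the 9 factors in the 2 WT and 2 Ctnnb1-ex3 libraries; points are libraries and black bars give the mean ± SD. Groups overlap only for Cdx2, Hnf4g shows the widest gap (556 and 640 against 131 and 109), and Sox9 and Klf4 are the factors whose Ctnnb1-ex3 points lie above WT.

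Of the 9 factors, 4 were called lower and 1 higher in Ctnnb1-ex3 organoids (edgeR quasi-likelihood test, adjusted p under 0.05). Over all 12976 genes tested, 40.8% were called, 20.5% lower and 20.3% higher. Among the factors, 55.6% were called, 44.4% lower and 11.1% higher. The median log2 fold change was -0.36 over the 9 and 0.02 over all genes. The groups did not overlap for 8 of the 9, and for 73.6% of all genes tested. An unadjusted p under 0.05 was reached by 7 of the 9, and by 50.4% of all genes.

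The HNF4 pair binds DNA through a pair of zinc fingers of the nuclear receptor type. Because the pair differed most in its response, the coding sequences of these fingers are shown first, from the GENCODE M21 mouse transcripts, 5′ to 3′ on the coding strand. Capitals mark the bases at which the paralogs differ.
Hnf4a: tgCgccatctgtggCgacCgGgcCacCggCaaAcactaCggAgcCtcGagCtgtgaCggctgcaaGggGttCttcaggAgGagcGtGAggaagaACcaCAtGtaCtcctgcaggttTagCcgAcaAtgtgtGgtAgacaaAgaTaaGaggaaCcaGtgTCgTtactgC
Hnf4g: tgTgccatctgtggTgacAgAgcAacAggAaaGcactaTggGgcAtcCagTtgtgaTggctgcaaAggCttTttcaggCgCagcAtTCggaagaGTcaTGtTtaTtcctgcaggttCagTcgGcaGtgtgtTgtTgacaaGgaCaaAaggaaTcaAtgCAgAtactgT
The stretches code for 56 residues, of which 53 are identical, but 43 of 168 bases differ. The longest run of bases shared by any transcript of Hnf4a with any of Hnf4g was 17, so no stretch of 31 bases is common to both, and reads of that length from the paralogs can be told apart. The read length is not given in the sources used here.

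Hnf4g stood at 556 and 640 CPM in WT and at 131 and 109 in Ctnnb1-ex3. Both Ctnnb1-ex3 libraries were far under both WT libraries. It fell 4.96-fold (log2 fold change -2.31 ± 0.19, SE; edgeR adjusted p = 0.000189). Among the 9 factors this was the largest difference, and the call held in all 12 alternative settings, with a log2 fold change between -2.46 and -1.79.

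Hnf4a stood at 313 and 375 CPM in WT and at 202 and 240 in Ctnnb1-ex3. The groups were apart, but by less than for its paralog: it fell 1.56-fold (log2 fold change -0.64 ± 0.18, SE; edgeR adjusted p = 0.0243). That call was lost when WT replicate 1 (-0.80, adjusted p = 0.0668), WT replicate 2 (-0.52, 0.188) or Ctnnb1-ex3 replicate 1 (-0.53, 0.0713) was left out. It was also lost with upper-quartile factors (log2 fold change -0.40, adjusted p = 0.0822). With upper-quartile factors the median of all genes moved to 0.26. With a read-density offset, a correction for differences that run with level, Hnf4a stayed called but moved less (-0.27, edgeR adjusted p = 0.0447). The ratio of Hnf4a to Hnf4g per length went from 0.306 and 0.320 in WT to 0.839 and 1.19 in Ctnnb1-ex3, a difference of 1.68 in the mean log2 ratio. In WT the paralog Hnf4g was thus the more abundant, and in Ctnnb1-ex3 the pair was about level.

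Hnf4a has a pair of promoters, known as P2 (upstream) and P1 (downstream), which give proteins with different N-terminal ends. The counts sum both and cannot say which start was used. Both starts are shown because they mark what this count combines, from the RefSeq table of the GRCm38.p6 build, plus strand, 250 bases before to 50 after the start. Capitals mark the GATA motif AGATAA on either strand.
Hnf4a upstream start, chr2:163506607-163506906: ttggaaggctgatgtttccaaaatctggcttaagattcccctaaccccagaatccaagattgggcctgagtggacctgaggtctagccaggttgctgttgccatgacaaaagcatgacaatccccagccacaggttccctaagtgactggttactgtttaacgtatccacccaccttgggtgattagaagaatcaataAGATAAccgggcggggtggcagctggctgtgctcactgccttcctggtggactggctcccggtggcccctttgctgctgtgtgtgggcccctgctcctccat
Hnf4a downstream start, chr2:163546905-163547204: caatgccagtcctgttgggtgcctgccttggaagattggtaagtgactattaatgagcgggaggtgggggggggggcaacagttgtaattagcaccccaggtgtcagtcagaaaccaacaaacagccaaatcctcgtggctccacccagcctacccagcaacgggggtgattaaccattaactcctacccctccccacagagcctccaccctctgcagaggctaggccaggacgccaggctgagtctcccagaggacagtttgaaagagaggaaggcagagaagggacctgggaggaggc
The upstream window holds 1 match to AGATAA and the downstream window 0; 11.2% of all 32851 promoter windows of this length hold at least 1. Neither holds the TCF/LEF letters ATCAAAG (3.73% of windows), the CDX letters TTTATNG (10.9%), the HNF4 letters CAAAGTCC (1.42%) or the KLF letters CCACACCC (3.56%). All were searched on both strands. The windows of Cdx2 and Klf4, the other members in the table, hold 0 matches to any of these 5 motifs. A match describes letters, not binding.

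Genes that CDX2 or the HNF4 pair are known to regulate in enterocytes were lower as well. Of 22 such genes tested, 20 fell and 0 rose, against 20.5% lower and 20.3% higher over all genes. Their median log2 fold change was -1.55, against 0.02 over all genes. Among those averaging at least 3 in log2 CPM, the largest falls were those of Alpi, the brush border alkaline phosphatase (-3.78), Cubn, a receptor for intrinsic factor with its vitamin (-3.02), and Mttp, which lipidates apolipoprotein B (-2.88). Over the alternative settings, 16 to 22 of the list were called lower. These genes are also markers of the mature enterocyte, and whether the share of such cells differed was not tested. Of the 8 intestinal epithelial markers, 7 fell and 0 rose, with summed CPM of 2510 and 3108 in WT, against 1266 and 1569 in Ctnnb1-ex3. Vil1, Cdh17, Gpa33 and Muc13 belong to both lists, so these counts are not independent.

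Gata4 stood at 142 and 146 CPM in WT and at 86.4 and 73.5 in Ctnnb1-ex3. Its libraries were tightly grouped and apart. It fell 1.80-fold (log2 fold change -0.85 ± 0.14, SE; edgeR adjusted p = 0.00277), and was called in all 12 alternative settings, between -0.98 and -0.61. Gata6 had 147 and 169.7 CPM in WT, against 123 and 125 in Ctnnb1-ex3. Its groups were apart by less than the gap between the WT libraries. Its log2 fold change of -0.35 (95% interval -0.67 to -0.02) did not pass after adjustment (edgeR adjusted p = 0.0851). The ratio of Gata4 to Gata6 per length was 1.61 and 1.44 in WT, against 1.17 and 0.977 in Ctnnb1-ex3.

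Genes on either side of the regional boundary that GATA4 keeps were lower together. Against 20.5% of all genes called lower and 20.3% higher, 8 of 9 such genes tested fell and 0 rose. Among them were genes of the ileum, which GATA4 is known to hold down: the ileal bile acid carrier Fabp6 (log2 fold change -6.61) and the bile acid exporter subunits Slc51b (-5.25) and Slc51a (-3.68). Slc40a1, Apoa4, Cybrd1 and Rbp2, which are not bile acid genes, fell too. Over the alternative settings Slc40a1 ran from -3.57 to -2.77 and Apoa4 from -2.78 to -1.75. Cybrd1 ran from -2.12 to -1.81 and Rbp2 from -1.70 to -0.74. Whether the share of mature enterocytes differed was not tested. Lactase (Lct), of the proximal side, was the 1 gene of the 9 not called, at -1.33 (edgeR adjusted p = 0.245). Over the alternative settings, 7 to 9 were called lower. Lct and Apoa4 also belong to the list of enterocyte genes.

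Cdx1 stood at 148 and 182 CPM in WT and at 121 and 135 in Ctnnb1-ex3. The groups were apart, with a log2 fold change of -0.36 (95% interval -0.73 to 0.00263), which did not pass (edgeR adjusted p = 0.101). It was called without Ctnnb1-ex3 replicate 2 (-0.44, adjusted p = 0.03), and its direction turned with a read-density offset (0.088), a correction for differences that run with level. Cdx2 had 88.4 and 78.4 CPM in WT, against 81.2 and 91.2 in Ctnnb1-ex3. The libraries of the groups were interleaved. Its log2 fold change was 0.04, with a 95% interval from -0.29 to 0.37 (edgeR adjusted p = 0.844). A change of any size inside that interval remains compatible with these libraries. Its sign turned when WT replicate 2 (-0.054) or Ctnnb1-ex3 replicate 2 (-0.049) was left out. Per length, Cdx1 was 2.16 and 2.998 times Cdx2 in WT, against 1.93 and 1.92 times in Ctnnb1-ex3.

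KLF4 and KLF5 bind similar GC-rich sites through 3 zinc fingers of the C2H2 type. Their coding sequences, from the same GENCODE transcripts, are shown because the log2 fold changes of the paralogs differed in sign. Capitals again mark the bases that differ.
Klf4: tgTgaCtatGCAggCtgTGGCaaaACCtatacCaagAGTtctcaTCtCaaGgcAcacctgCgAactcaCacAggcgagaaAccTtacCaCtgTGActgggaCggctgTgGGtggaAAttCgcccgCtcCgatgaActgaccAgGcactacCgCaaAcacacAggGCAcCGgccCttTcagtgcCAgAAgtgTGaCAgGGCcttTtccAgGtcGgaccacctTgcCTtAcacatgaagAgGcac
Klf5: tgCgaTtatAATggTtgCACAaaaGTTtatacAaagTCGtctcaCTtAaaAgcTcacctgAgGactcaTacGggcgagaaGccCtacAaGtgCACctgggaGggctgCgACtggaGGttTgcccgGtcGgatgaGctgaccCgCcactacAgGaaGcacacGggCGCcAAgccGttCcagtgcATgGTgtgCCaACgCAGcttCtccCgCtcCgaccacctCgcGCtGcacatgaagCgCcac
Of 81 residues 67 are identical, while 77 of 243 bases differ and the longest run shared by transcripts of the pair is 15 bases.

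Klf5 stood at 206 and 231 CPM in WT and at 141 and 163 in Ctnnb1-ex3. Both Ctnnb1-ex3 libraries were lower. It fell 1.43-fold (log2 fold change -0.52 ± 0.16, SE; edgeR adjusted p = 0.0309). The call was lost when WT replicate 1 (-0.63, adjusted p = 0.11), WT replicate 2 (-0.45, 0.234) or Ctnnb1-ex3 replicate 1 (-0.43, 0.06) was left out. It was also lost with upper-quartile factors (log2 fold change -0.28, adjusted p = 0.147) and with the read-density offset (-0.26, adjusted p = 0.0753). Klf4 had 74.8 and 61.6 CPM in WT, against 93.0 and 83.7 in Ctnnb1-ex3. Its groups were apart, in the opposite direction, but the log2 fold change of 0.37 (95% interval 0.02 to 0.72) did not pass (edgeR adjusted p = 0.0871). It passed with upper-quartile factors (0.61, adjusted p = 0.0185), with the read-density offset (0.55, adjusted p = 0.0233) and when Ctnnb1-ex3 replicate 2 was left out (0.43, adjusted p = 0.00809). The ratio of Klf4 to Klf5 per length was 0.619 and 0.456 in WT, against 1.12 and 0.874 in Ctnnb1-ex3, a difference of 0.90 in the mean log2 ratio.

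Across all genes tested, 20.3% were called higher and 20.5% lower. Of 10 genes of cell division, the setting in which KLF5 is best known, 5 rose and 0 fell. They included the helicase gene Mcm5 (log2 fold change 0.98), Mki67 (0.84) and the cyclin gene Ccnd1 (0.75). Without WT replicate 1, and likewise without WT replicate 2, only 1 was called higher. Between 1 and 6 were called higher over the alternative settings, and Mki67 and Ccnd1 were each not called in 2 of the 12. Of 9 genes linked to KLF4 and cell cycle exit, 4 fell and 1 rose, at a median log2 fold change of -0.52. When Ctnnb1-ex3 replicate 2 was left out 7 were called lower, and over the alternative settings 3 to 7; with the read-density offset the median was 0.044. The keratin gene Krt20 fell (-2.62), as did Alpi, and the cell cycle inhibitor gene Cdkn1c rose (1.91), a call lost in 1 of 12 alternative settings.

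Sox9 stood at 121 and 116 CPM in WT and at 271 and 287 in Ctnnb1-ex3. Replicates were close and the groups far apart. It rose 2.35-fold (log2 fold change 1.23 ± 0.15, SE; edgeR adjusted p = 0.000767), and was called in all 12 alternative settings, between 1.19 and 1.54. All 13 Wnt target genes of the crypt that were tested rose too, against 20.3% of all genes called higher. Their median log2 fold change was 3.06. Tnfrsf19, a Wnt-responsive receptor gene (5.61), Ascl2, the stem cell factor gene (4.70), and Nkd1, a feedback inhibitor gene (4.41), had the largest rises. Sox9 therefore sat under the median of that list. Between 12 and 13 of the list were called higher over the alternative settings.

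**Figure D2:**
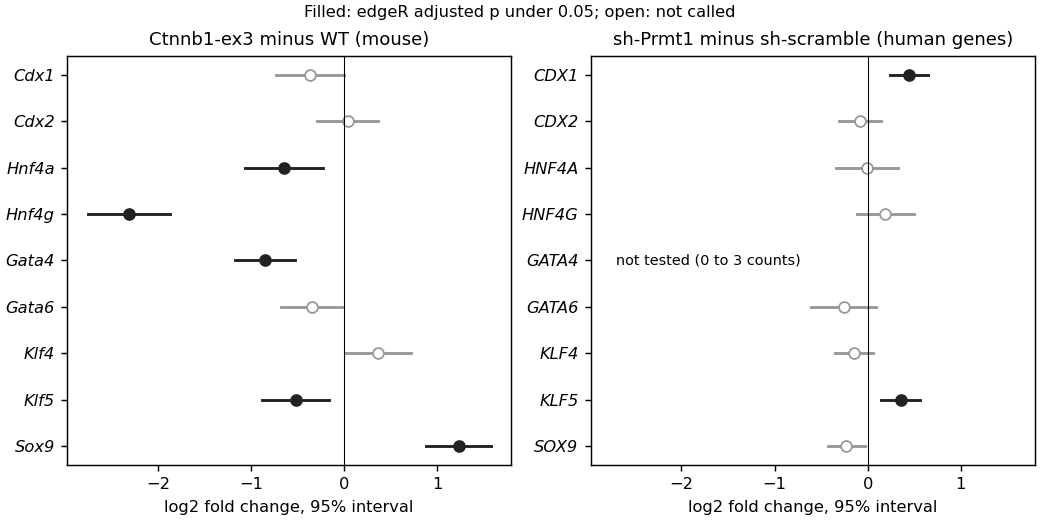
Log2 fold change with its 95% interval for each factor, Ctnnb1-ex3 against WT on the left and sh-Prmt1 against sh-scramble on the right, on a shared axis. Filled points passed edgeR at an adjusted p under 0.05: Hnf4g (-2.31), Gata4, Hnf4a, Klf5 and Sox9 (1.23) on the left, CDX1 (0.45) and KLF5 (0.35) on the right.

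Related factors outside the 9 were called in both directions in Ctnnb1-ex3 organoids, as were genes at large. Over all 12976 genes tested, 20.3% were called higher and 20.5% lower. Of 18 tested paralogs (other CDX, GATA, KLF and SOX genes), 5 rose and 2 fell. Without Ctnnb1-ex3 replicate 1, 8 were higher and 2 lower, without Ctnnb1-ex3 replicate 2, 7 and 4, and without WT replicate 2, 4 and 1. Upper-quartile factors gave 8 and 1, and the read-density offset 5 and 1. All 5 that rose were SOX genes, among them Sox12 (log2 fold change 3.54), Sox21 (3.36) and Sox4 (1.97). Of 22 partner factors of gut endoderm, 6 rose and 8 fell; 5 were higher and 4 lower without WT replicate 1, 4 and 4 without WT replicate 2, and 9 and 5 with upper-quartile factors. With DESeq2, 4 were higher and 8 lower. Among those averaging at least 3 in log2 CPM, the basic helix-loop-helix factor gene Ascl2 had the largest rise. Creb3l3, a membrane-bound factor of lipid metabolism, had the largest fall (-3.40).

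The authors' deposited table of this comparison gave log2 fold changes of -2.31 for Hnf4g, -0.85 for Gata4, -0.64 for Hnf4a, -0.52 for Klf5 and 1.22 for Sox9. In the authors' deposited table these 5 had adjusted p-values of at most 0.018, and the other 4 factors of at least 0.246.

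The knockdown libraries differed in which factors they held. In sh-scramble, per length, CDX1 led at 59.5 ± 5.34 TPM (transcript abundance scaled for length and library), ahead of KLF4 (34.5 ± 0.153) and SOX9 (31.4 ± 2.77). KLF5 (24.8 ± 0.185) and HNF4A (24.6 ± 4.75) overlapped. CDX2 followed at 19.9 ± 1.12 and GATA6 at 14.1 ± 4.31. HNF4G, first in the mouse WT order, stood at only 2.71 ± 0.296 TPM here. GATA4 had 1 count in each sh-scramble library, and 0 and 3 counts in those of sh-Prmt1, at or under the floor in every library, so it was not tested and no fold is given. The intestinal markers LGALS4 and CDH17 were at 787 to 1370 and 25.9 to 58.1 TPM in these 4 libraries. The experiments differ in the species of their gene tables, in counting and in depth, so these levels are given side by side without a test.

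**Figure D3:**
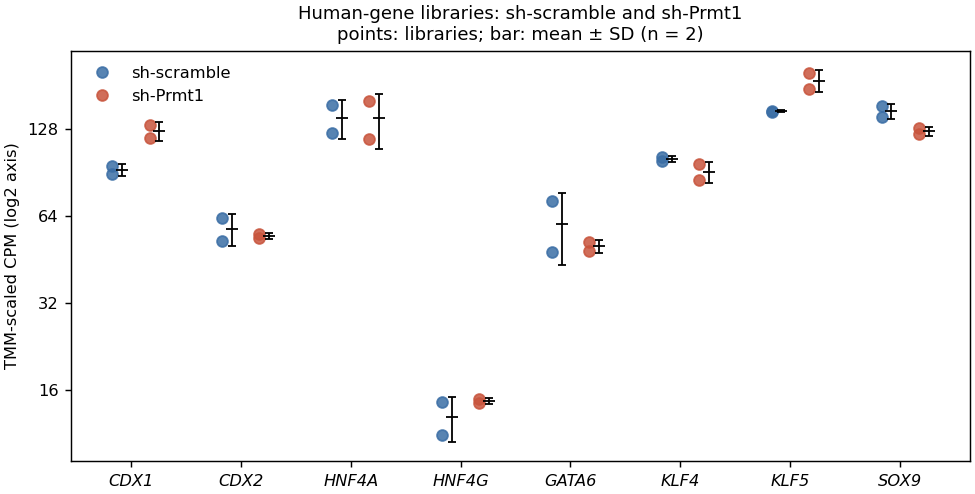
TMM-scaled CPM (log2 axis) of the 8 tested factors in the 2 sh-scramble and 2 sh-Prmt1 libraries; points are libraries and black bars the mean ± SD, with GATA4 left out for want of counts. CDX1 (89.2 and 95.5 against 132 and 119) and KLF5 lie higher in sh-Prmt1, and HNF4A and CDX2 overlap between groups.

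Of the 8 factors tested in the knockdown, 2 were called higher and 0 lower by edgeR, with 3 at an unadjusted p under 0.05, a level that 48.7% of all genes reached. By DESeq2, 2 were called higher and 1 lower. Of all 18452 genes tested, 40.9% were called by edgeR, 20.5% higher and 20.4% lower, against 25.0% of the factors. The median log2 fold change was -0.04 over the 8 and 0.03 over all genes. Groups did not overlap for 4 of the 8, and for 71.1% of all genes tested.

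CDX1 stood at 89.2 and 95.5 CPM in sh-scramble and at 132 and 119 in sh-Prmt1. Both sh-Prmt1 libraries were higher. It rose 1.36-fold (log2 fold change 0.45 ± 0.09, SE; edgeR adjusted p = 0.00353), and was called in all 13 alternative settings, between 0.35 and 0.66, the higher values on the TPM scales, where it went from 55.7 and 63.3 to 101 and 86.4 TPM. CDX2 had 63.1 and 52.6 CPM in sh-scramble, against 53.7 and 55.4 in sh-Prmt1, inside the control range. Its log2 fold change of -0.08 had a 95% interval from -0.31 to 0.14 (edgeR adjusted p = 0.547), and its sign turned on the log2(TPM + 1) scale (0.050) and without sh-scramble replicate 1 (0.0041). Per length, CDX1 was 2.70 and 3.32 times CDX2 in sh-scramble, against 4.83 and 4.28 times in sh-Prmt1.

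KLF5 stood at 147 and 148 CPM in sh-scramble and at 177 and 201 in sh-Prmt1. The groups were apart by more than either pair of replicates. It rose 1.28-fold (log2 fold change 0.35 ± 0.09, SE; edgeR adjusted p = 0.0129). The call was lost without sh-scramble replicate 1 (0.30, adjusted p = 0.0505) and without sh-Prmt1 replicate 2 (0.24, adjusted p = 0.131). KLF4 had 102 and 99.2 CPM against 85.5 and 96.6, groups that were apart, with a log2 fold change of -0.15 (95% interval -0.35 to 0.06; edgeR adjusted p = 0.234). In TPM, KLF4 stood at 34.4 and 34.6 in sh-scramble against 33.8 and 35.3 in sh-Prmt1, where the groups overlap. The ratio of KLF4 to KLF5 per length was 1.39 in both sh-scramble libraries and 0.984 and 0.962 in sh-Prmt1. The difference in the mean log2 ratio of CPM was -0.50, opposite in sign to that in Ctnnb1-ex3 organoids.

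**Figure D4:**
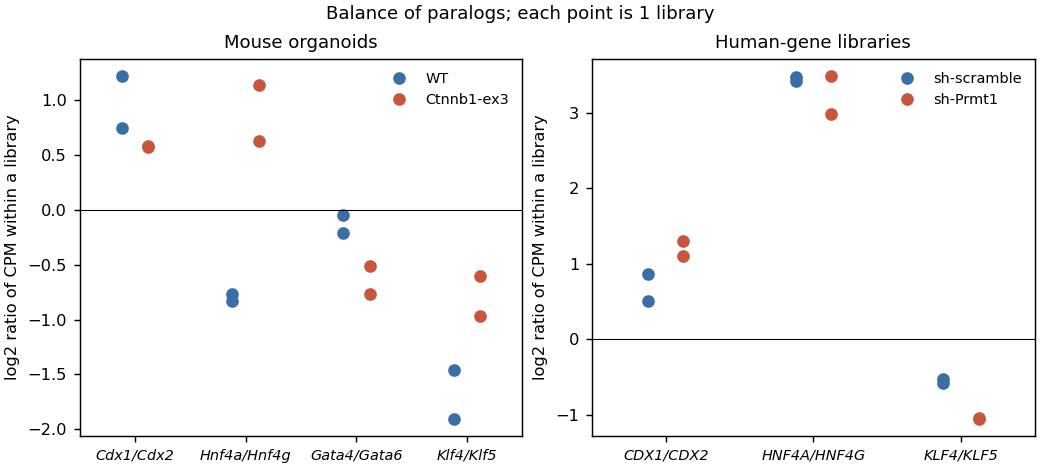
Log2 ratio of CPM of paralogs within each library, mouse on the left and human-gene libraries on the right; each point is 1 library, and the line at 0 marks equal CPM, not equal level per length. Hnf4a/Hnf4g lies under 0 in both WT libraries and over 0 in both Ctnnb1-ex3 libraries, and Klf4/Klf5 shifts up in Ctnnb1-ex3 while KLF4/KLF5 shifts down in sh-Prmt1.

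SOX9 stood at 142 and 154 CPM in sh-scramble and at 123 and 129 in sh-Prmt1. The groups were apart, but the log2 fold change of -0.23 (95% interval -0.43 to -0.03) did not pass after adjustment (edgeR adjusted p = 0.0607). DESeq2 called it (-0.25, adjusted p = 0.0369), as did edgeR without sh-scramble replicate 1 (-0.34, adjusted p = 0.0177). In TPM it stood at 29.5 and 33.4 against 29.9 and 29.1, where the groups overlap. Of 12 Wnt target genes tested in these libraries, 0 rose and 2 fell, against 20.5% higher and 20.4% lower over all genes. Those that fell were the receptor kinase gene EPHB3 (-3.27) and LGR5 (-0.68). LGR5 was not called in 2 of 13 alternative settings. On both TPM scales 3 of the list were called higher and 1 lower.

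HNF4A had 124 and 155 CPM in sh-scramble, against 161 and 118 in sh-Prmt1. The ranges of the groups nearly coincided, and the log2 fold change was -0.0047 (95% interval -0.34 to 0.33; edgeR adjusted p = 0.984). Its sign turned in 6 of 13 alternative settings. HNF4G had 11.2 and 14.5 CPM against 14.3 and 14.9, with a log2 fold change of 0.19 (95% interval -0.12 to 0.49; edgeR adjusted p = 0.31), and GATA6 48.1 and 72.0 against 52.1 and 48.5 (-0.26, 95% interval -0.61 to 0.09; edgeR adjusted p = 0.221). The sh-scramble libraries of GATA6 differed more from each other than the groups did. Without sh-scramble replicate 1 it was called lower (-0.57, adjusted p = 0.000152) and without sh-scramble replicate 2 it stood at 0.047.

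For comparison with the lists below, 20.5% of all genes tested were called higher in sh-Prmt1 and 20.4% lower. Of 13 tested enterocyte genes known to be regulated by CDX2 or HNF4, 5 rose and 3 fell in sh-Prmt1. On both TPM scales, 6 of them were higher and 0 lower. The membrane mucin gene MUC13 (log2 fold change 1.54), the ferroxidase gene HEPH (1.01) and the cadherin gene CDH17 (0.95) rose most among those averaging at least 3 in log2 CPM. Of 6 tested genes of the GATA4 boundary list, which pools both sides of the boundary, 5 rose and 0 fell. Among them were SLC51B (1.31), FABP6 (0.98) and the iron exporter gene SLC40A1 (0.68). GATA4 itself was at the floor in these libraries, and its part was not tested. The 8 intestinal epithelial markers summed to 1675 and 1643 CPM in sh-scramble, against 2107 and 2036 in sh-Prmt1, with 3 called higher and 1 lower. VIL1, CDH17, GPA33 and MUC13 among these markers are also in the enterocyte list. Stomach markers summed to 10.5 and 9.98 against 25.5 and 24.7 CPM, mostly TFF1, and immune and blood markers to 3.94 and 4.10 against 9.39 and 9.95, with 2 of the list called higher. In that list HBB went from 2 and 1 counts to 116 and 222, and CD68 from 43 and 36 to 161 and 182, while GZMA was at 0 counts in all 4 and PTPRC at no more than 7. Their part in these differences was not tested. Of 10 cell division genes 7 fell and 0 rose, including the replication clamp gene PCNA (-0.81), CCND1 (-0.79) and CCNB1 (-0.50). CCND1 was not called in 3 and CCNB1 in 2 of 13 alternative settings, and 1 to 7 of this list were called lower over them, with 1 on both TPM scales. Of 9 genes linked to KLF4 and cell cycle exit, 4 rose and 1 fell, with AGR2, a goblet cell disulfide isomerase gene, at -1.25 and the inhibitor gene CDKN1B at 1.01. That list includes CDX1 itself.

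Again beside 20.5% higher and 20.4% lower over all 18452 genes tested, related factors were called in both directions. Of 19 partner factors tested, 4 rose and 7 fell in sh-Prmt1, against 4 higher and 4 lower on both TPM scales. Among them were the epithelial factor genes GRHL2 (log2 fold change -1.11) and EHF (-0.87), which fell, and ELF3 (0.90), which rose. GRHL2 was not called in 2 of 13 alternative settings. Of 20 tested paralogs 6 rose and 3 fell, with KLF7 (0.69), KLF6 (0.60) and KLF13 (0.55) among those that rose. Without sh-scramble replicate 2, 6 were higher and 1 lower, without sh-Prmt1 replicate 1, 4 and 1, and without sh-Prmt1 replicate 2, 6 and 2. Over all alternative settings 4 to 8 were higher and 1 to 4 lower. In the authors' deposited table of the knockdown, log2 fold changes were 0.41 for CDX1, 0.28 for KLF5 and -0.30 for SOX9, with adjusted p-values of 0.00249, 0.0462 and 0.0286. The authors' deposited table marks none of the 9 factors as changed. By its label, that mark uses a fold-change cut as well as a p-value cut. The calls made here use no fold-change cut.

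**Figure D5:**
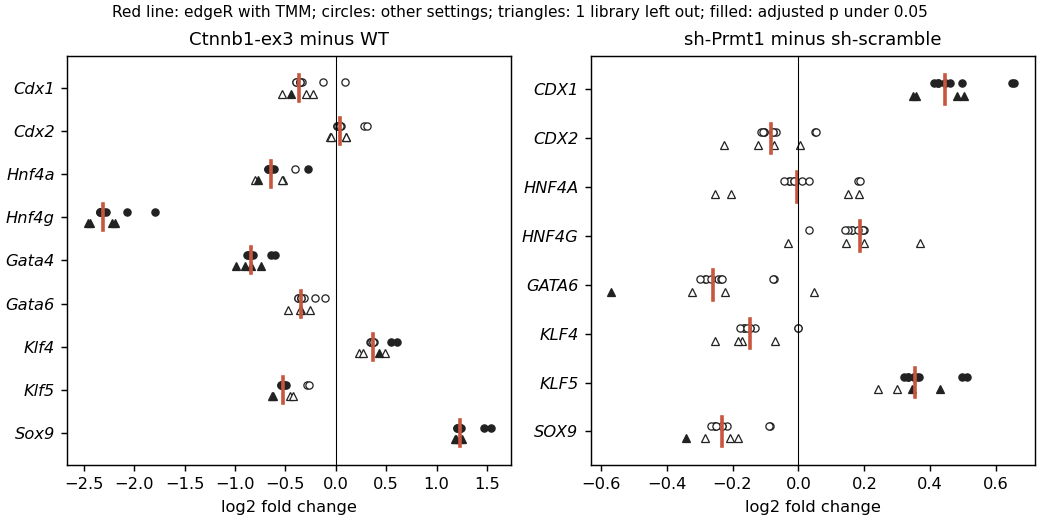
Log2 fold change of each tested factor under each alternative, Ctnnb1-ex3 against WT on the left and sh-Prmt1 against sh-scramble on the right. The red line is edgeR with TMM, circles are other settings, triangles leave out 1 library, and filled symbols passed at an adjusted p under 0.05; every symbol is filled for Hnf4g, Gata4, Sox9 and CDX1.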

How the data were processed

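RNA was polyadenylated RNA, copied by a custom Smart-seq2 procedure per the labels' protocols; its standard form keeps no strand. For the genotype experiment the authors deposited whole-number counts per mouse symbol, the lowest being 1, with 861 genes at 1 in all 4 libraries; the counting tool is not given in the sources used here. For the knockdown the authors deposited gene-level estimated counts and TPM, per the file headers, in Salmon's format; all 60237 identifiers are human and 60236 were paired with a symbol by the authors' deposited table. Both deposited comparisons give log2 fold changes and adjusted p-values. The submitters' processing notes name mm10, Salmon and DESeq2 without versions.

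Estimated counts were rounded. The experiments were fitted separately in R 4.3.3, by edgeR 4.0.16 (TMM, filterByExpr, quasi-likelihood, two-sided, Benjamini-Hochberg over all genes). Genes were called at an adjusted p under 0.05. The fits were also run on simulated counts. Far fewer genes changed there than were called here, so scaling under broad shifts was not checked. The biological coefficient of variation was 0.171 and 0.105. Replicates differed by more than counting noise (chi-square per degree of freedom at least 3.75). CPM per kb used exon lengths of GENCODE M21. TPM were compared as log2(TPM + 1). The members and lists were chosen with earlier results of these data known. Every member is named. From each list at most the 3 called genes with the largest change and an average log2 CPM of at least 3 are named. Lct, Slc40a1, Apoa4, Cybrd1 and Rbp2 were added for the genotype experiment after their values were seen. Alternatives used DESeq2 1.42.0 and limma 3.58.1; the read-density offset was chosen after seeing the data. Some genes of these lists are not reported here.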

Additional observations from a re-analysis of the deposited data

How the results depend on the processing

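Of the changes of single factors, 178 of 212 values under an alternative kept their direction and their side of the threshold, 11 lost it, 9 gained it and 14 changed sign; the cause was not tested. In the genotype experiment, members called higher went from 1 to 2 with upper-quartile factors and with the read-density offset, and members called lower from 4 to 2 with upper-quartile factors, where 1752 genes were called lower against 2654. Leaving out 1 library each gave 1 to 2 members called higher and 2 to 5 lower, and 1110 to 4008 genes called higher and 1524 to 3749 lower. In the knockdown it gave 1 to 2 members higher and 0 to 2 lower. DESeq2 called 1 member lower against 0, and log2(TPM + 1) and log2(TPM + 0.1) called 1934 and 1925 genes lower against 3765. Upper-quartile factors moved the share of higher among called genes from 49.8% to 68.0%, and log2(TPM + 1) from 50.2% to 65.1%.

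Among the factors that changed sign, none was called in the fit it was reported from. Cdx1, reported at -0.36, had 0.088 with the read-density offset. HNF4A had 0.011 with upper-quartile factors, 0.031 with the effective gene length offset, and 0.18 and 0.19 in the TPM fits, where CDX2 had 0.050 and 0.052. With 1 library left out at a time, values ran from -0.054 to 0.106 for Cdx2, -0.254 to 0.185 for HNF4A, -0.568 to 0.047 for GATA6, -0.033 to 0.369 for HNF4G and -0.225 to 0.0041 for CDX2. Only GATA6 among these was called in such a fit, lower without sh-scramble replicate 1.

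Replicate numbers are shared between groups but nothing says that they pair the libraries, and deviations of equal numbers correlated at 0.07 and -0.05. With a replicate block, Cdx1 (log2 fold change -0.36, adjusted p = 0.0244) and Gata6 (-0.34, adjusted p = 0.0328) were called, and no other member's call changed; 2981 genes were then called higher and 3503 lower between genotypes, and 3527 and 3578 after knockdown. With 2 libraries per group, an exact permutation test of a single value cannot pass 0.05, so every call rests on spread shared between genes. Only GATA4, with 0 to 3 counts in the knockdown libraries, had too few counts for a test.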
